A study of Mus musculus with 12 samples.

Results

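The report describes how macrophages recruited from the bone marrow differed between the infarct zone and the remote zone of injured mouse hearts, across all genes. The comparison used 6 of the 12 libraries of the series, 3 of recruited macrophages from the infarct zone and 3 from the remote zone, and every gene of the deposited table was a member, of which 18773 of 55487 had enough counts to be tested. Hosts were CD45.2 mice carrying Mx1Cre and Myb flox/flox, in which polyI:C deletes Myb in blood-forming cells, so that bone marrow is emptied without irradiation. They received CD45.1 bone marrow, then ischemia and reperfusion (I/R) of the heart by tying and releasing the left anterior descending artery, and all groups share this background and injury. Macrophages were sorted 2 days after I/R injury as living CD45+ CD11b+ F4/80+ CD64+ cells without lineage markers, and the CD45.1+ cells among them are called recruited and the CD45.2+ cells resident. The remote zone (RZ) is the heart muscle above the ligature and the infarct zone (IZ) the ischemic muscle below it. In this model the donor marrow replaces host marrow only as far as the host stem cells were deleted, Mx1Cre is not specific to one cell type, and recruited and resident cells also differ in genotype. Neither age nor sex of single mice is given by the labels.

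Monocytes leave the blood within hours of a heart attack, enter the damaged muscle and become macrophages there. They arrive with an inflammatory program marked by Ly6C and CCR2, and over days some take on genes of tissue macrophages, which clear dead cells, store iron from hemoglobin and sense their surroundings through scavenger, lectin and purine receptors. Resident heart macrophages carry that tissue program in the healthy heart, with LYVE1, CD163 and the folate receptor among its markers. The question here is how recruited cells differed with the zone in which they were found.

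Total counts were 47596586 to 63435529 per remote and 42996887 to 55329986 per infarct library of CD45.1 macrophages. Genes of the sorted markers were expressed in all 6, with Ptprc (CD45) at 388 to 563, Itgam (CD11b) at 1492 to 2144, Adgre1 (F4/80) at 590 to 1058 and Fcgr1 (CD64) at 285 to 457 CPM, the count scaled by the library total after TMM adjustment, which evens out differences in RNA composition. Libraries S104 to S107, S108 to S111 and S112 to S115 each hold 1 library of every group and are called library sets. No label says what a set is, and Xist and Y-linked genes were alike within each set, with the 2 sets S104 to S107 and S112 to S115 female and the set S108 to S111 male. The first principal component of the 6 libraries held 39.25% of the variance and parted S104 and S105 from the other 4, so the set separated libraries more than the zone did. No label says that the libraries of a group came from separate animals, so all p-values measure the spread between these samples. Bulk RNA cannot tell apart fewer cells of a kind and less RNA per cell.

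Without regard to sets, the quasi-likelihood test of edgeR (Benjamini-Hochberg adjusted p) called no gene between the zones at an adjusted p under 0.05 (0.0% of 18773). The smallest adjusted p was 0.0611, for Cmah and Pigz, and 512 genes were higher and 977 lower in the infarct zone at an unadjusted p under 0.05. DESeq2 on the same counts called 38 genes higher (0.203% of 18760) and 152 lower (0.81%). The libraries of one set deviated from their group means together, with correlations across genes of 0.566, 0.241 and 0.381, whereas libraries of different sets lay between -0.401 and 0.118. Deviations from a group mean cancel within the group, so these correlations constrain each other. With the library set as a block, edgeR called 12 genes higher (0.0639%) and 51 lower (0.272%) in the infarct zone. All 63 had the same direction in each of the 3 sets, which the blocked fit favours when it selects genes. Of the 18773 genes tested, 3852 were lower and 3781 higher in all sets. Of the 51 lower genes 41, and of the 12 higher genes 7, were also called by DESeq2 without the block.

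These 63 genes are the ones described first, and they were chosen after their values were seen, since the rule set for naming genes in the fit without sets named none. They rest on few libraries. The numbers called higher and lower with the block were 4 and 20 without S104, 10 and 40 without S105, 95 and 201 without S108, 0 and 2 without S109, 0 and 2 without S112, and 0 and 0 without S113. Cmah was called in 5 of these 6 reduced fits, Gpr34 in 4 and each other gene in 3 or fewer. The fitted direction of each of the 63 genes was kept in every reduced fit and every other alternative run. Those fits reuse the libraries that chose the genes, so the kept directions are no independent support. Of the 51 lower genes 25, and of the 12 higher genes 3, share exons with another gene, and read pairs were counted for every gene they overlapped, so counts of such genes may include a neighbour's reads.

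**Figure D1:**
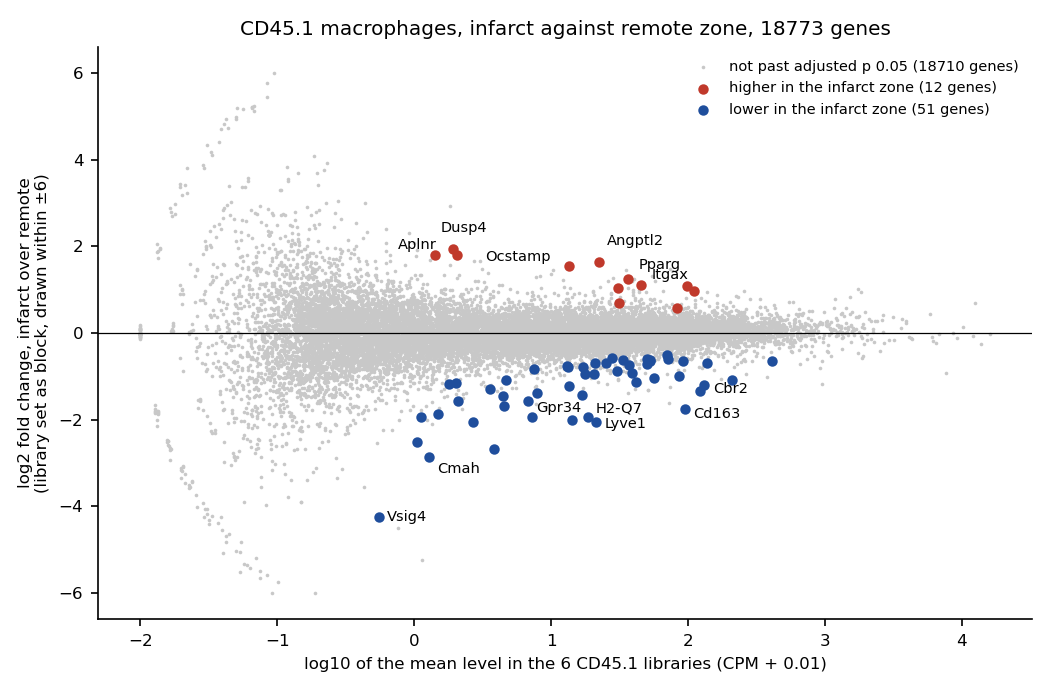
Each point is 1 of 18773 genes, with the mean level in the 6 CD45.1 libraries on the horizontal axis (log10 of CPM + 0.01) and the log2 fold change of infarct over remote zone, fitted with the library set as block, on the vertical axis. The 12 genes called higher are red, the 51 called lower are blue, and most of the latter lie between 1 and 500 CPM.

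Lyve1, which encodes a hyaluronan receptor of tissue macrophages, and Cd163, the receptor that takes up hemoglobin with its carrier haptoglobin, were lower in the infarct zone, as were the tissue macrophage genes Cbr2, Vsig4 and Fcna. Lyve1 was at 24.3, 44.8 and 34.0 CPM in the remote libraries S104, S108 and S112, and at 6.40, 12.7 and 6.10 CPM in the infarct libraries S105, S109 and S113. Cd163 was at 129, 113.2 and 199 CPM in remote libraries, against 63.5, 29.8 and 35.3 CPM in infarct libraries. In both genes every infarct library lay under every remote library. The log2 fold change with the block was -2.04 (SE 0.294, adjusted p = 0.0277) for Lyve1 and -1.76 (SE 0.293, adjusted p = 0.0430) for Cd163. Without the block, the adjusted p of each was 0.182. Leaving out 1 library moved the blocked fold change of Lyve1 between -2.42 and -1.80 and that of Cd163 between -2.27 and -1.51, and the calls held in 1 and 2 of 6 such fits. Lyve1 lies on chromosome 7 (110850607 to 110863239) and Cd163 on chromosome 6 (124304656 to 124330527) of GRCm38.

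Cbr2, which encodes a carbonyl reductase, was at 169, 135 and 245 CPM in remote libraries, against 100.3, 58.1 and 81.9 CPM in infarct libraries (log2 fold change -1.19, SE 0.186, adjusted p = 0.0380). Fcna, the gene of ficolin A, a lectin that starts the complement cascade, was at 5.96, 11.9 and 17.0 against 3.42, 3.13 and 2.16 CPM (-1.94, SE 0.331, adjusted p = 0.0482). Its antisense gene Fcnaos shares exons with it and the reads of the pair cannot be told apart. Vsig4, a complement receptor, was near the limit of detection, with 161 counts over the remote and 7 over the infarct libraries (-4.24, SE 0.698, adjusted p = 0.0430), and S104 held most of the remote level, at 2.28 CPM against 0.30 in S108 and 0.504 in S112. For all these genes the remote and infarct libraries lay apart.

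**Figure D2:**
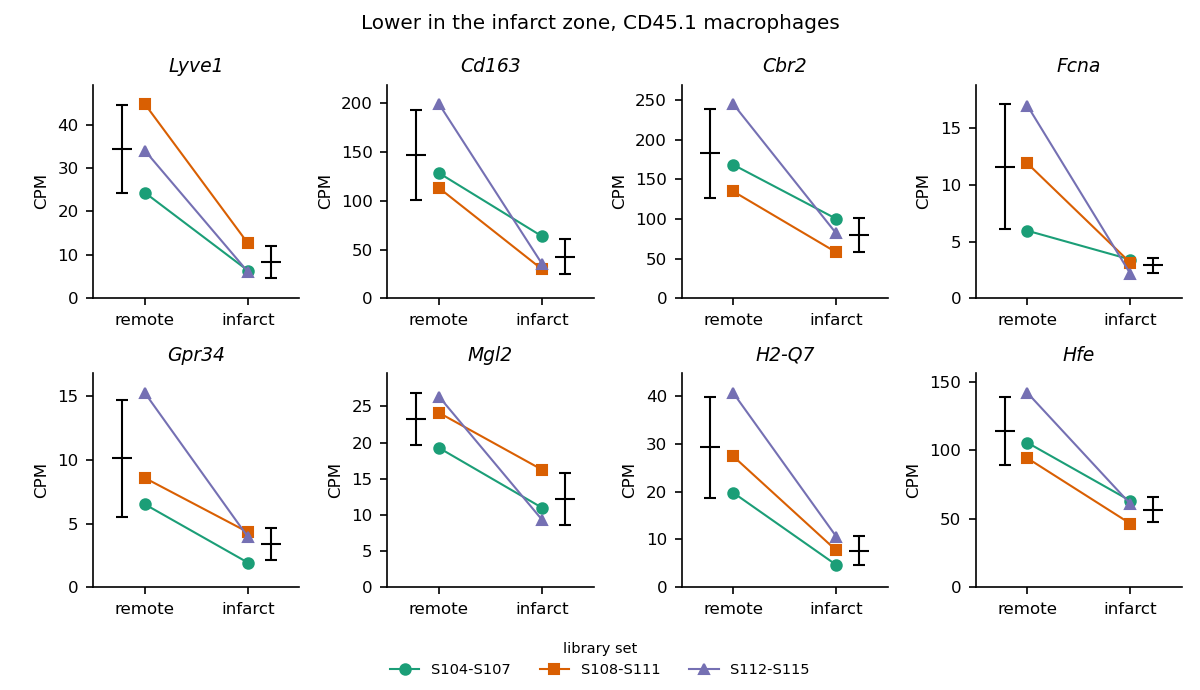
Levels in CPM of 8 genes called lower in the infarct zone with the library set as block, with each line joining the remote and the infarct library of 1 set and bars giving the mean ± SD of 3 libraries. All 24 lines fall from remote to infarct, for example from 34.0 to 6.10 CPM of Lyve1 in the set S112 to S115.

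These genes belong to a list of 26 genes of resident macrophage identity, of which 0 were called higher and 5 lower with the block, and 0 and 7 by DESeq2. Over all genes tested the shares called higher and lower were 0.0639% and 0.272% with the block, and 0.203% and 0.81% by DESeq2. The list's median log2 fold change was -1.04, where the median of all genes tested was 0.00. That median leans on genes near 0. Over the 21 members at 1 CPM or more it was -0.51. A lower level in the infarct library of every set was seen for 15 of 26 members, and for 3852 of all 18773 genes tested. The 3 infarct libraries lay under the 3 remote ones for 10 of 26, where 8.5% of all genes tested did so and 7.04% lay apart in the other direction. Members without a call included Folr2, the folate receptor, at 84.1, 76.0 and 121 CPM in remote libraries, against 68.7, 48.0 and 58.8 CPM in infarct libraries (adjusted p = 0.0900 with the block). Selenop, which encodes a selenium carrier, was at 1034, 1020 and 1975 against 646, 428 and 650 CPM, a difference that DESeq2 called (adjusted p = 0.00682) and edgeR with the block did not (adjusted p = 0.0609). Both genes were apart between the zones without passing edgeR's test.

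Of the other members whose zones did not overlap, Ccl24, a chemokine for eosinophils, was at 54.9, 57.1 and 46.8 against 33.1, 12.98 and 14.1 CPM (log2 fold change -1.37, adjusted p = 0.254 with the block and 0.0442 by DESeq2). Gas6, which bridges dying cells to their receptors, was at 135, 151 and 316 against 119, 95.6 and 109.4 CPM, and F13a1, the coagulation factor XIII A chain, at 2206, 2911 and 2196 against 2167, 2079 and 2063 CPM (adjusted p = 0.148 and 0.644 with the block). Neither passed a test. The zones overlapped for the remaining 16 of 26 members. Stab1, a scavenger receptor, was at 1454, 1222 and 1510 CPM in remote libraries, against 1361, 1214 and 1331 CPM in infarct libraries. Mrc1, the mannose receptor, was at 641, 494 and 803 against 526, 576 and 452 CPM (log2 fold change -0.31, adjusted p = 0.477). Timd4, a receptor for dying cells that marks resident macrophages, did not exceed 0.153 CPM in any CD45.1 library. The list summed to 7962, 8264 and 9775 CPM in remote libraries, against 6922, 6535 and 7165 CPM in infarct libraries (exact permutation p = 0.1, 2-sided, the smallest that 3 against 3 allows).

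Levels of this list in CD45.2 macrophages are given because they bear on the sort. The summed level there was 25986 to 26552 CPM in remote libraries, against 14099 to 17487 CPM in infarct libraries. Of 26 members 25 were lower in CD45.1 than in CD45.2 remote macrophages, 16 of them at under 20% of the CD45.2 level. The list was chosen with earlier results of these data known, so this direction is no separate finding. The paper reports Timd4, Lyve1, Cd163, Retnla and Stab1 as higher in resident cells. The mean remote level of CD45.1 relative to CD45.2 libraries was 2.13% for Lyve1, 10.3% for Cd163, 13.7% for Cbr2 and 0.0534% for Timd4. Any part of unlike numbers of sorted host cells in the zone difference was not tested.

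Promoter sequences are shown for 4 of the 63 genes as examples: Cd163 and Hfe as lower genes, Ctsf as a lower gene whose window holds an E-box, and Itgax as a higher gene with an AP-1 site. Each is the window of 250 bases before the start of the gene in RefSeq on GRCm38.p6, written 5′ to 3′ on the strand of the gene. Capitals mark the AP-1 letters TGAGTCA or TGACTCA in Itgax and Hfe and the E-box CACGTG in Ctsf, and no motif is marked in Cd163.
Cd163 (chr6:124304401-124304650, plus strand): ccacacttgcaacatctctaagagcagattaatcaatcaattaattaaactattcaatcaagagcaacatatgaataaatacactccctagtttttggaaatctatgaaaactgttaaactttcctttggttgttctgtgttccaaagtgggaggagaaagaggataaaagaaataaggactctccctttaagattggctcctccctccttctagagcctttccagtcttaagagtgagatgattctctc
Hfe (chr13:23710855-23711104, minus strand): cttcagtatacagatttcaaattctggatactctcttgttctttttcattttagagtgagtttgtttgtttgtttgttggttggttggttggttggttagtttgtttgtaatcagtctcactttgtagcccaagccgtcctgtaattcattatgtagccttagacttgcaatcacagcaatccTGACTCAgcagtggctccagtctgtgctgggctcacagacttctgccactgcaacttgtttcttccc
Ctsf (chr19:4854915-4855164, plus strand): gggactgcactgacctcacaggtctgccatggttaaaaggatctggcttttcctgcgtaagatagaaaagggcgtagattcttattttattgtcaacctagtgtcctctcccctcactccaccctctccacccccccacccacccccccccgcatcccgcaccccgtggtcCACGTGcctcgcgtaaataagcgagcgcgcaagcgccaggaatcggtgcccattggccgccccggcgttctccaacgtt
Itgax (chr7:128129300-128129549, plus strand): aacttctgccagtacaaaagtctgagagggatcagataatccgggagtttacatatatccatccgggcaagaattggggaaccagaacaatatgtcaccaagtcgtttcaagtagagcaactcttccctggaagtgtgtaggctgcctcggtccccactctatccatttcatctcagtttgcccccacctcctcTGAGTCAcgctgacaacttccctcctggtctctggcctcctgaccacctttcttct

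A whole chromosome was left out of the promoter set used. In that set a RefSeq promoter was at hand for 44 of the 63 genes, 9 higher and 35 lower. The AP-1 letters stood on either strand in 2 of the 9 higher (22.2%) and 2 of the 35 lower genes (5.71%), beside 4.24% of the 11590 tested genes with a promoter. CACGTG stood in 0 of 9 and 3 of 35 (8.57%), beside 9.53%. The shorter letters ACGTG or GCGTG of hypoxia response elements, the first of which CACGTG contains, stood in 44.4% and 51.4%, beside 58.4%. These matches are descriptions of the windows and were not tested.

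Several receptors were among the other lower genes. Gpr34 and P2ry12, receptors for lysophosphatidylserine and for ADP, were both lower in the infarct zone. Gpr34 was at 6.52, 8.58 and 15.3 CPM in remote libraries, against 1.93, 4.33 and 3.95 CPM in infarct libraries (log2 fold change -1.57, SE 0.176, adjusted p = 0.00753), and its call held in 4 of 6 fits that left out 1 library. P2ry12 was at 33.2, 41.8 and 46.8 against 24.7, 25.7 and 28.7 CPM (-0.61, SE 0.106, adjusted p = 0.0431), and shares exons with Med12l. Mgl2, a galactose-binding lectin, was at 19.3, 24.1 and 26.4 against 10.98, 16.2 and 9.32 CPM (-0.95, adjusted p = 0.0482). In each of the 3 genes the zones did not overlap. Cd33, an inhibitory receptor for sialic acid, was lower at -0.88 (SE 0.099, adjusted p = 0.00753), and Ms4a4a, a membrane protein of macrophages, at -0.65 (adjusted p = 0.0482), from 410 to 626 CPM in remote libraries, against 264 to 409 CPM in infarct libraries.

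Hfe, Fcgrt, H2-Q7 and Ighm, picked from the 51 genes after the calls were seen, were also lower. Hfe, the hemochromatosis gene, whose product takes part in iron sensing, was at 105.7, 94.4 and 142 CPM in remote libraries, against 63.2, 46.5 and 60.8 CPM in infarct libraries (log2 fold change -0.99, SE 0.127, adjusted p = 0.0177). Fcgrt, the neonatal Fc receptor that rescues antibodies from breakdown, was at 137, 125 and 271 against 83.0, 54.7 and 64.2 CPM (-1.33, SE 0.218, adjusted p = 0.0430). H2-Q7, a nonclassical MHC class I gene, was at 19.8, 27.4 and 40.7 against 4.67, 7.71 and 10.6 CPM (-1.94, SE 0.256, adjusted p = 0.0179). The zones did not overlap in any of them. H2-Q7 has close relatives in the same gene cluster that can share its reads, so its value is uncertain. Ighm, the IgM heavy chain gene of B cells, was at 41.6, 56.5 and 72.8 against 16.6, 26.7 and 36.4 CPM (-1.14, SE 0.153, adjusted p = 0.0179), without a call by DESeq2 (adjusted p = 0.158). Cd79b, a B cell marker, moved with it, at 6.96, 3.60 and 8.28 against 3.16, 2.63 and 2.95 CPM (-1.07, adjusted p = 0.0792 with the block and 0.00869 by DESeq2), and the part of B cells in the value of Ighm was not tested.

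Cmah, the enzyme that makes N-glycolylneuraminic acid from its sialic acid precursor, had the smallest adjusted p of the blocked fit. It was low, at 1.495, 2.30 and 2.90 CPM in remote libraries, against 0.362, 0.259 and 0.270 CPM in infarct libraries (log2 fold change -2.85, SE 0.254, adjusted p = 0.00351). Its call was lost only without S113, where the adjusted p was 0.0739. Lipid and lysosome genes among the 51 were Pltp, the phospholipid transfer protein, at -1.09 (adjusted p = 0.0257, exons shared with Ctsa), Ctsf, the protease cathepsin F, at -1.16 (adjusted p = 0.0431), Arsg, a lysosomal sulfatase, at -1.42 (adjusted p = 0.0177, exons shared with Slc16a6), and Hpgd, which breaks down prostaglandins, at -1.45 (adjusted p = 0.0482). Bmp2, a growth factor of the TGF-beta family, was lower at -2.05 (adjusted p = 0.0430), from 2.01, 3.47 and 7.83 CPM to 0.986, 0.682 and 1.19 CPM. Others were Ahr, the aryl hydrocarbon receptor, at -0.50, Igfbp4, which binds insulin-like growth factors, at -0.70, Bmf, which promotes cell death, at -1.29, and Fpr1, a receptor for bacterial formyl peptides, at -0.74, the last with overlapping zones. Over the 51 lower genes the median log2 fold change was -1.09, and 3 of them, Fpr1, Pde2a and Ahr, had overlapping zones. Cables1, Mir1901 and Gm6277 overlap each other and count the same reads in part.

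The 12 genes higher in the infarct zone included Itgax (CD11c, an integrin of dendritic cells and of activated macrophages), Pparg, a nuclear receptor that drives lipid uptake genes, and Noct, a phosphatase that follows the body clock. Itgax was at 29.9, 37.6 and 19.7 CPM in remote libraries, against 57.1, 76.8 and 51.6 CPM in infarct libraries (log2 fold change 1.11, SE 0.149, adjusted p = 0.0179). Pparg was at 13, 26.9 and 25.2 against 32.3, 53.0 and 68.2 CPM (1.24, SE 0.136, adjusted p = 0.00753). Noct was at 55.5, 75.3 and 56.6 against 104.1, 132 and 163 CPM (1.08, SE 0.153, adjusted p = 0.0236). In all 3 genes each infarct library lay above every remote library. Itgax and Noct were also called by DESeq2 without the block and Pparg was not (adjusted p = 0.0966). Without 1 library the calls of Itgax, Pparg and Noct held in 2, 3 and 2 of 6 fits, with fold changes of 0.94 to 1.23, 1.12 to 1.37 and 0.92 to 1.22.

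The other 9 higher genes follow. Angptl2, a secreted angiopoietin-like protein, was at 10.0, 13.9 and 7.31 CPM in remote libraries, against 22.7, 45.0 and 34.6 CPM in infarct libraries (1.65 on the log2 scale, SE 0.265, adjusted p = 0.0429). Dusp4, a phosphatase that switches off MAP kinases, was at 0.824, 0.900 and 0.651 against 2.62, 2.89 and 3.56 CPM (1.94, SE 0.317, adjusted p = 0.0429). Ocstamp, needed for the fusion of osteoclasts and macrophages, was at 4.62, 10.9 and 5.46 against 13.2, 25.3 and 21.3 CPM (1.56, adjusted p = 0.0438). These zones did not overlap. Rasgef1b, an exchange factor for small GTPases, rose by 0.97 (SE 0.119, adjusted p = 0.0146), from 60.4 to 84.8 CPM in remote to 113.4 to 173 CPM in infarct libraries, and Cd276, an immune checkpoint ligand, by 1.03 (adjusted p = 0.0380). Utp20 and Wdr43, factors of ribosome assembly in the nucleolus, were higher by 0.69 and 0.58. Aplnr, the apelin receptor, was the single higher gene with overlapping zones, at 0.173, 1.1 and 1.76 against 1.05, 3.43 and 4.68 CPM. Of 16 endothelial marker genes tested, 9 were also higher in the infarct library of every set and 0 lower in every set. The part of endothelial cells in the value of Aplnr was not tested. Xirp2, an actin-binding protein of muscle, was at 0.518 to 0.817 against 1.87 to 2.35 CPM.

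**Figure D3:**
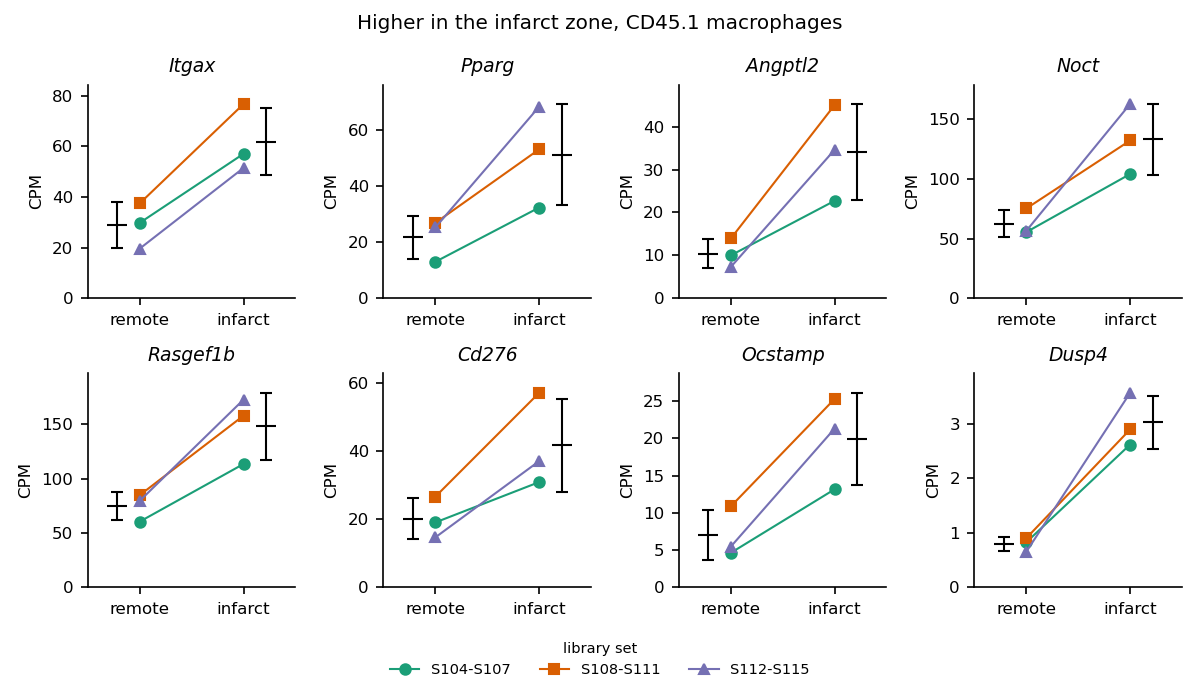
Levels in CPM of 8 genes called higher in the infarct zone with the library set as block, with each line joining the 2 libraries of 1 set and bars giving the mean ± SD of 3 libraries. All lines rise, as from 13 to 32.3 CPM of Pparg in the set S104 to S107.

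Of 21 complement genes tested, 1 was called higher (Itgax, which encodes a subunit of a complement receptor) and 1 lower (Vsig4) with the block, and 1 higher and 6 lower by DESeq2, with a median log2 fold change of -0.31. The shares called over all genes tested were 0.0639% higher and 0.272% lower with the block, and 0.203% and 0.81% by DESeq2. Vsig4 is also a member of the resident list. C1qa, which encodes a chain of the C1q recognition protein, was at 866, 655 and 927 CPM in remote libraries, against 610, 407 and 482 CPM in infarct libraries (-0.71, adjusted p = 0.0647 with the block and 0.00869 by DESeq2). C1qb and C1qc, which encode its other chains, stood at -0.57 and -0.65 with adjusted p = 0.101 and 0.0900 with the block, and DESeq2 called both (adjusted p = 0.0175 and 0.0167). The remote and infarct libraries lay apart for all 3 chains. The list median was below 0 in each set, at -0.24, -0.26 and -0.45.

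Of 19 genes of iron and heme handling, 0 were called higher and 2 lower with the block, Cd163 and Hpgd, of which Hpgd acts on prostaglandins and not on iron. The block called 0.0639% of all genes tested higher and 0.272% lower, and Cd163 is also a member of the resident list. Blvrb, a biliverdin reductase of heme breakdown, was at 61.6, 50.5 and 53.7 against 41.6, 22.7 and 31.8 CPM (-0.81, adjusted p = 0.0647 with the block and 0.0188 by DESeq2). Of 16 genes of MHC class II presentation none was called by either tool, and the median was -0.42, with -0.25, -0.38 and -0.57 in the 3 sets. H2-Aa, an MHC class II chain, was at 90.6, 189 and 217 CPM in remote libraries, against 63.7, 114.5 and 86.6 CPM in infarct libraries, so the infarct library was lower in each set while the zones overlapped. Of 18 MHC class I genes 0 were called higher and 1 lower, H2-Q7, with a list median of -0.20.

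No gene of 30 inflammatory cytokines and chemokines was called with the block, and DESeq2 called Tnf higher and Ccl24 lower. Ccl24 is also a member of the resident list. DESeq2 called 0.203% of the genes it tested higher and 0.81% lower. The median log2 fold change of the inflammatory list was 0.43, with 0.71, -0.26 and 0.47 in the sets, so the set S108 to S111 went the other way. Ccl2 and Ccl7, the chemokines that draw CCR2+ monocytes, were higher in each infarct library than in any remote library without passing a test. Ccl2 was at 1685, 1757 and 538 CPM in remote libraries, against 2911, 2073 and 2086 CPM in infarct libraries (0.94 with the block, adjusted p = 0.148). Ccl7 was at 1377, 1587 and 577 against 2675, 2005 and 2158 CPM (1.02, adjusted p = 0.0982). Tnf was at 17.6, 26.4 and 16.5 against 28.4, 33.6 and 36.9 CPM (0.72, adjusted p = 0.0815 with the block and 0.0296 by DESeq2).

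Of 28 genes of the classical monocyte list tested in recruited cells, none was called with the block or by DESeq2. Their median was 0.06, with 0.25, -0.34 and 0.31 in the sets. The list also holds Treml4, Nr4a1 and Ace, which mark nonclassical monocytes. Among all genes tested the block called 0.0639% higher and 0.272% lower. Ly6c2 was at 48.9, 113.2 and 103.5 CPM in remote libraries, against 62.2, 99.0 and 126 CPM in infarct libraries. Ccr2, the receptor for CCL2, was at 862, 1520 and 1296 against 900.1, 1560 and 1250 CPM. Within each set the zones were close in both genes, and the set S104 to S107 was the lowest in either zone.

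Metabolic and stress lists held few calls, as did all genes tested, with 0.0639% higher and 0.272% lower with the block and 0.203% and 0.81% by DESeq2. Of 41 genes of glycolysis and the hypoxia response none was called with the block in recruited cells, with a median of 0.07, and DESeq2 called Bnip3l lower. Of 36 type I interferon genes none was called by either tool. Their median was 0.22 and came mainly from the set S104 to S107 (0.64, against -0.00 and 0.18), in which Rsad2, an antiviral enzyme, was at 4.95 CPM in the remote and 36.2 CPM in the infarct library. Of 40 cell cycle genes none was called, with a median of 0.28. Of 27 genes of fatty acid use 1 was called higher, Pparg, and 0 lower, and Cd36, a receptor for fatty acids and oxidized lipids, was at 187, 268 and 287 against 353, 400 and 532 CPM (0.79, adjusted p = 0.0906 with the block and 0.00980 by DESeq2). Of 22 genes of lipid-associated macrophages 1 was called higher, Itgax, and DESeq2 also called Mmp12, macrophage elastase (42.1, 35.6 and 27.3 against 100.5, 94.8 and 46.2 CPM). Plau, the urokinase gene, was at 2.09, 3.62 and 2.63 against 4.43, 7.15 and 6.28 CPM (1.105, adjusted p = 0.0647 with the block and 0.00978 by DESeq2). Dusp4, Bmf, Bmp2 and Fpr1 were each the single call with the block in the lists of cytokine brakes, cell death, matrix and repair, and chemokine receptors and adhesion.

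**Figure D4:**
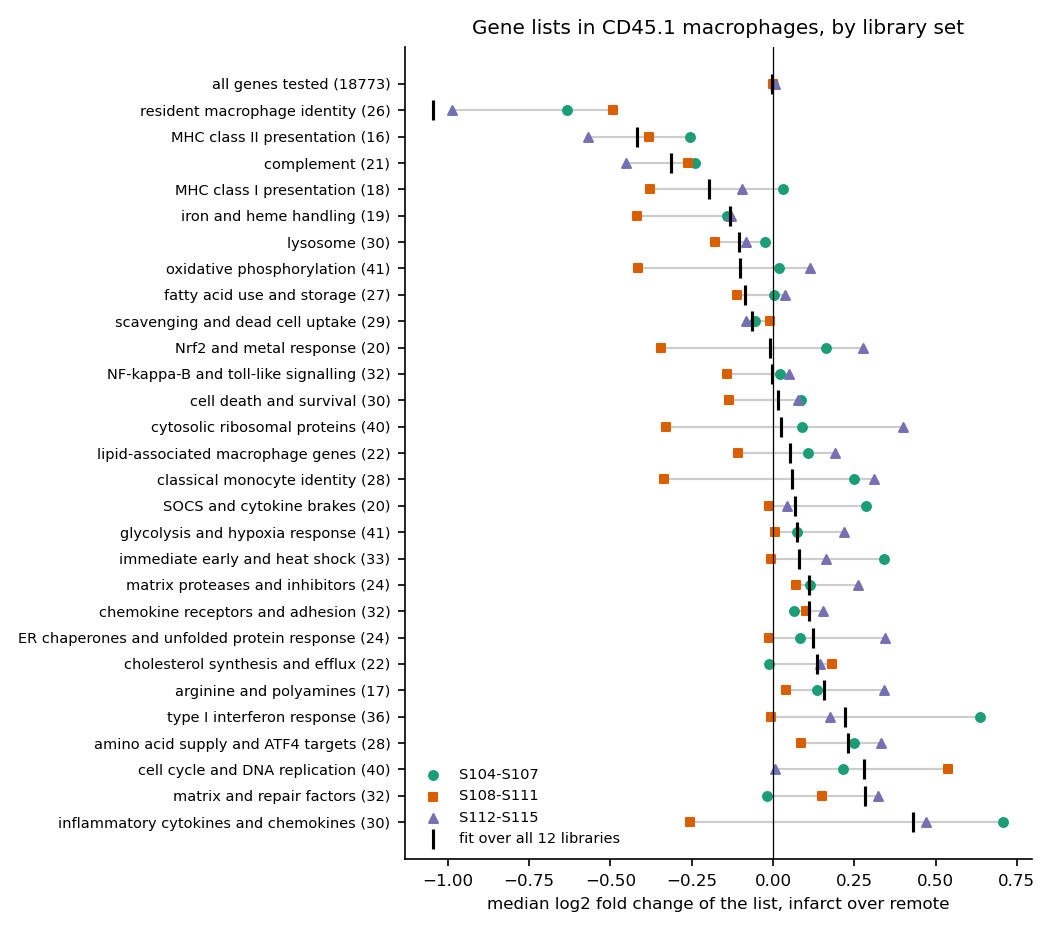
Median log2 fold change, infarct over remote zone, of each gene list in CD45.1 macrophages, with the number of members tested in parentheses, for each library set (coloured points) and for the fit over all 12 libraries (black bars). The lists of resident identity, MHC class II, complement, iron and heme handling, lysosome and scavenging lie below 0 in all 3 sets, and the inflammatory list runs from -0.26 to 0.71.

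Resident (CD45.2) macrophages were the most similar comparison available. Between the same zones edgeR with the block called 981 genes higher (5.23%) and 524 lower (2.79%) in CD45.2 cells. Of the 51 genes lower in recruited cells 39 were also called lower in resident cells, and of the 12 higher genes 10 were also called higher. No gene was called in opposite directions. Lyve1 stood at -2.04 in recruited and -1.15 in resident cells, Cd163 at -1.76 and -1.06, and Itgax at 1.11 and 1.79. H2-Q7 was called in recruited cells alone, at -1.94 against -0.17, and the difference did not pass its own test.

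The difference of the zone effects itself passed for 91 genes with the block (0.485%), 90 of them toward resident cells, and for 0 genes without it (smallest adjusted p 0.0543, with 208 and 620 genes at an unadjusted p under 0.05). Of the 91 genes, 88 were called higher in the infarct zone in resident cells, 4 were called in recruited cells and 9 belong to the list of classical monocyte genes. Their median log2 fold change was 0.13 in recruited and 2.00 in resident cells. The mean level was higher in recruited cells for 89 of the 91 genes among remote libraries and for 83 among infarct libraries, and the median level in resident cells was 7.68% and 29.8% of that in recruited cells. Whether recruited cells carried over into the CD45.2 sort took part in this was not tested.

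Ly6c2 showed the pattern. It was at 1.63, 2.36 and 3.29 CPM in resident remote and 7.29, 22.6 and 24.7 CPM in resident infarct libraries, and the difference of the zone effects was -2.66 (SE 0.258, adjusted p = 0.00278). Fn1, which encodes fibronectin, was at 5738, 6119 and 3337 CPM in recruited remote and 6838, 8038 and 5045 CPM in recruited infarct libraries. In resident cells Fn1 was at 345, 289 and 113.7 against 2213, 2221 and 997 CPM, with a difference of -2.47 (SE 0.262, adjusted p = 0.00278). In both genes every resident library lay below every recruited one, in either zone. Chil3, a chitinase-like protein of monocytes, and Hp, haptoglobin, differed by -2.08 and -2.07 (adjusted p = 0.0149 and 0.00484).

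Spp1, which encodes osteopontin, was among the most abundant genes of recruited cells, at 10615, 10103 and 6794 CPM in remote libraries, against 23829, 12778 and 11012 CPM in infarct libraries. The infarct libraries lay above the remote ones, and the fold change did not pass (0.70 with the block, adjusted p = 0.211). In resident cells it was at 835, 446 and 258 against 7905, 3015 and 2435 CPM, and the difference of the zone effects was -2.39 (SE 0.318, adjusted p = 0.00836). Of the 63 genes called in recruited cells, 4 also passed the test of the difference. Aplnr and Hvcn1, a proton channel, had fold changes of 1.80 and -0.93 in recruited cells and -0.44 and 0.23, without a call, in resident cells. Cmah fell by 2.85 in recruited and by 1.11 in resident cells on the log2 scale, and Xirp2 rose by 1.79 and 4.49.

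**Figure D5:**
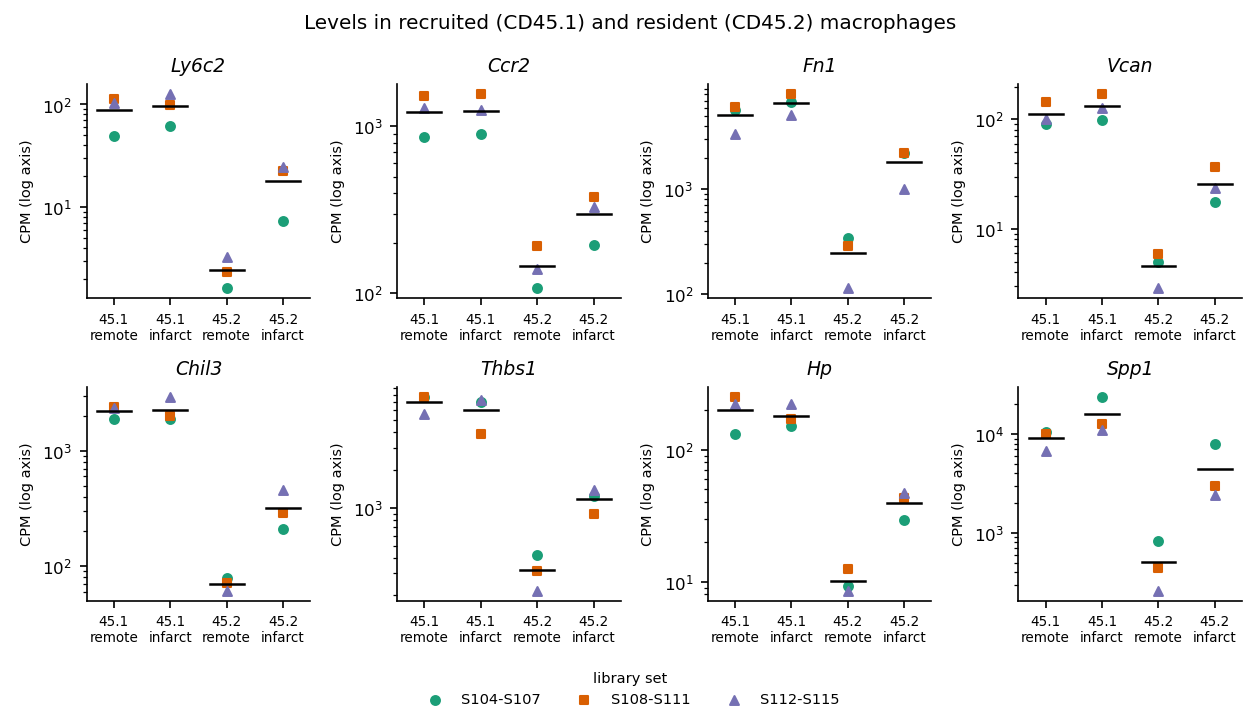
Levels in CPM (log axis) of 8 monocyte and matrix genes in the 12 libraries, with points for single libraries, symbols for the library set and bars for the mean of 3. Recruited cells are high in both zones, while resident cells rise from remote to infarct, as for Ly6c2 from a mean of 2.43 to 18.2 CPM. For Ly6c2 and Fn1 every resident library lies below every recruited one. For Spp1 the highest resident infarct library lies above the lowest recruited remote library.

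Markers of other cell types were compared between the zones in the 6 recruited libraries. The test was a 2-sided exact permutation test on the summed level, whose smallest p is 0.1. It does not pair the libraries by set. Heart muscle genes summed to 735, 542 and 509 CPM in remote libraries, against 821, 617 and 656 CPM in infarct libraries (exact p = 0.4), of which 93.6% was Atp2a2, a calcium pump that many cells express. Fibroblast genes summed to 882, 941 and 891 against 912, 1204 and 1044 CPM (exact p = 0.2), mostly Gsn. Endothelial genes summed to 60.6, 101.5 and 122 against 60.7, 109.3 and 166 CPM (exact p = 0.6). Neutrophil genes summed to 385 to 474 against 272 to 486 CPM (exact p = 0.4), and Ly6g, which defines neutrophils, did not exceed 0.0805 CPM. Lymphocyte genes summed to 44.5, 44.8 and 39.7 against 54.8, 62.4 and 95.9 CPM (exact p = 0.1), of which 82.0% was Il7r, while Cd3e, which defines T cells, did not exceed 0.241 CPM and 2 of 18 genes were at 0. In that list DESeq2 called Cd79b and Cd4 lower, the latter with 79 counts over the remote and 14 over the infarct libraries (DESeq2 adjusted p = 0.00231, and 0.121 by edgeR with the block). Red cell and platelet genes summed to 1855, 1482 and 1237 against 1323, 527 and 827 CPM (exact p = 0.2), of which 75.7% was Pf4, a chemokine that macrophages also express. Sums of dendritic (exact p = 0.7), smooth muscle (exact p = 1.0) and mast cell and eosinophil genes (exact p = 0.7) overlapped between the zones, and 3 of the 10 mast cell and eosinophil genes were at 0. Within every set the infarct library had the higher sum of heart muscle, fibroblast, endothelial and lymphocyte genes. Sums lean on the most abundant gene, and medians over tested members did not all keep this direction. In the order of the sets, median log2 fold changes of heart muscle genes were 0.04, 0.16 and -0.07. Those of fibroblast genes were -0.85, 1.05 and 0.13. They were 0.56, 0.21 and 0.57 for endothelial and 0.51, 0.28 and -0.00 for lymphocyte genes. Of 11 lymphocyte genes tested, 3, Cd2 and Cd79b among them, were lower and 4, with Il7r, higher in every set. It had the lower sum of red cell and platelet genes in every set. The neutrophil, dendritic, smooth muscle, and mast cell and eosinophil sums did not keep a direction over the sets. The part of such cells in the differences between the zones was not tested.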

How the data were processed

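RNA of sorted heart macrophages was measured in 12 libraries made by SMART-Seq v4, a full-length method without strand or molecule tags. The authors deposited 1 table of raw counts per gene, and the submitters' processing notes name GRCm38.p6, the aligner HISAT2 2.2.1 and Subread 2.0.1, whose featureCounts did the counting. Read pairs were counted for every gene overlapped. Symbols came from GENCODE M21 (55227 of 55487 genes), in which 11722 genes have overlapping exons. Samples were grouped by their labels, and 0 columns of samples were left unused.

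R 4.3.3 with edgeR 4.0.16 was used (TMM scaling, a filterByExpr minimum of 10 counts per library and 15 in total, 1 mean per group over 12 libraries, Benjamini-Hochberg adjustment over 18773 genes, threshold 0.05). The fit without sets was the planned main test and the fit with the library set as block an alternative. Each SE was derived from F, as the size of the log2 fold change over its root. CPM are counts scaled by the TMM-adjusted library total. The deviations of same-set libraries correlated above 0.1 in all 3 sets, so the sets were taken to pair the libraries. S112 and S109, from different sets, also lay above this cut (0.118). No label says what a set is, and blocked values stand beside the results they change. Alternatives were DESeq2 1.42.0, limma-voom (limma 3.58.1), other scalings and filters, the 6 CD45.1 libraries alone, leaving out genes that share exons, and leaving out each library. Alternatives of the blocked fit, and leaving out whole sets, were added after seeing the data. Sums were compared with Python 3.11.15 and scipy 1.17.1.

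The comparison, gene lists and markers were chosen with earlier results of these data known. Named by rule were the 15 largest changes and 10 smallest adjusted p in each direction with a mean of at least 10 CPM and a call, which gave none, the 3 smallest adjusted p per list, and the sorted markers. The 63 genes of the blocked fit and further genes of interest were named after their values were seen.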

Additional observations from a re-analysis of the deposited data

Results flagged for a closer look

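The zone effect differed between recruited and resident macrophages, by the test of the difference with the library set as block, for 14 of the genes named here. Values are the log2 fold change (infarct over remote) in CD45.1 minus that in CD45.2 macrophages. The difference was -2.66 for Ly6c2, -1.005 for Ccr2, -2.22 for Vcan, a matrix proteoglycan of monocytes, -2.08 for Chil3, -2.07 for Hp and -1.80 for Clec4e, a receptor for microbial glycolipids. It was -2.47 for Fn1, -2.14 for Thbs1, the thrombospondin gene, -2.39 for Spp1 and -2.23 for F10, coagulation factor X. It was -1.75 for Cmah, -1.16 for Hvcn1, -2.70 for Xirp2 and 2.24 for Aplnr. Adjusted p lay between 0.00278 and 0.0434 in edgeR with the block, and none of the 14 passed without the block. When each of the 12 libraries was left out in turn, the calls of Ly6c2, Vcan, Fn1 and Hp held in 12 of 12 fits, Spp1 and Clec4e in 11, Ccr2 and Chil3 in 9, Thbs1, Cmah and Xirp2 in 4, F10 and Aplnr in 3 and Hvcn1 in 2. Groups of 3 libraries are too small for a test of single outlying samples.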

How the results depend on the processing

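In the fit without sets, the numbers of genes higher and lower (0 and 0) became 38 and 152 with DESeq2, 12 and 51 with the library set as replicate block, and 195 and 243 with that block in the CD45.1 libraries alone. Lower genes became 1 without a filter, 1 without genes that share exons, and 0 to 2 when 1 library was left out. With the block, 12 and 51 became 216 and 468 with DESeq2, 506 and 593 with limma-voom, 40 and 148 without a filter, 195 and 243 in the CD45.1 libraries alone, and 0 and 0 with no block. They became 6 and 22 without the set S104 to S107, 1 and 4 without S108 to S111 and 0 and 0 without S112 to S115, and ranged from 0 to 95 and from 0 to 201 without 1 library. The difference of the zone effects (0 genes) became 91 with the block, 163 with DESeq2 and 322 with DESeq2 and the block, and ranged from 0 to 56 without 1 library, or from 21 to 239 with the block. The zone effect in CD45.2 cells (335 genes) became 1505 with the block, 1154 with DESeq2 and 2451 with both, and ranged from 135 to 1163 without 1 library, or from 403 to 2190 with the block. The causes were not tested. Without 1 library the log2 fold change of Ptprc, not called in any fit, ranged from -0.0505 to 0.194, and that of Itgam with the block from -0.0083 to 0.286. The paired deviations are a property of the sets and no label names their source. With 3 libraries a group, an exact test of 1 value cannot go below p = 0.1, and genes under about 1 CPM rest on few counts.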

Other observations

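Genes of lipid mediator synthesis that DESeq2 called and edgeR with the block did not were lower in the infarct zone. Alox5, which starts leukotriene synthesis, was at 37.0, 36.2 and 42.9 CPM in remote libraries, against 24.0, 23.5 and 18.4 CPM in infarct libraries (log2 fold change -0.81, DESeq2 adjusted p = 0.00236, and 0.0647 by edgeR with the block). Ltc4s, which makes leukotriene C4, was at 8.15, 14.9 and 19.3 against 6.22, 3.46 and 3.14 CPM (DESeq2 adjusted p = 0.000269, and 0.0836 with the block). Ptgs1, the gene of the prostaglandin enzyme COX-1, was at 72.6, 47.7 and 61.7 against 45.3, 14.6 and 25.7 CPM (DESeq2 adjusted p = 0.0440, and 0.0930 with the block). The zones did not overlap in any of them. Ltc4s and Ptgs1 share exons with other genes.

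Among genes that DESeq2 alone called higher, Sdc1, a cell surface proteoglycan, was at 36.7, 66.5 and 18.7 CPM in remote libraries, against 84.0, 132 and 106.7 CPM in infarct libraries (DESeq2 adjusted p = 0.00903, and 0.0696 by edgeR with the block). Igf2bp2, an RNA-binding protein, was at 18.6, 26.8 and 26.3 against 45.8, 55.9 and 67.8 CPM (DESeq2 adjusted p = 0.00416, and 0.0844 with the block). These 5 genes were chosen after their values were seen, so they are given as values.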
